A study of Mus musculus with 91 samples.

Results

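The Dlk1-Dio3 locus is an imprinted region of mouse chromosome 12. Its RNAs examined here are the 6 genes Dlk1, Meg3, Rtl1, Rian, Mirg and Dio3. They were selected by name from the 34745 rows of the gene tables, and each of the 6 had a row. Mirg was chosen because its values were higher in Pyr <-- ORBvl neurons, so its difference between the neuron types is described without a test. The other members were not chosen on that contrast.

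The data came from Patch-seq of single layer 5 pyramidal neurons (L5 Pyrs) in the primary visual cortex of mice with the wild-type genotype. After a patch-clamp recording, the soma with its nucleus was drawn into the pipette and its polyadenylated RNA was amplified to full-length cDNA. The labels give 47 Pyr <-- LP neurons, the type that receives input from the lateral posterior thalamic nucleus, and 44 Pyr <-- ORBvl neurons, the type that receives input from the ventrolateral orbitofrontal cortex. Each neuron was placed in a type by a classifier of its hyperpolarization-activated current, not by tracing its own inputs, and the labels do not say which mouse a neuron came from. P-values therefore measure the spread between neurons.

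Imprinted genes are read from only one parental chromosome. In this locus the protein-coding genes Dlk1, Rtl1 and Dio3 are known to be expressed from the paternal chromosome, and the long noncoding RNAs Meg3, Rian and Mirg from the maternal one. Dlk1 encodes a transmembrane ligand related to the Notch ligands, Rtl1 a protein derived from a retrotransposon, and Dio3 the deiodinase that inactivates thyroid hormone. Rian is known as a host of small nucleolar RNAs and Mirg as a host of microRNAs (miRNAs). The noncoding RNAs lie on the same strand in the order Meg3, Rian, Mirg, and are often described as parts of one long maternal transcription unit.

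In GRCm38 coordinates of GENCODE M21, Meg3 lies at chr12:109541001-109571726, Rian at chr12:109603940-109661716 and Mirg at chr12:109729764-109749460, all on the plus strand. Mirg starts 188.8 kb downstream of the Meg3 start. Dlk1 lies upstream at chr12:109452823-109463336, Rtl1 on the minus strand at chr12:109589193-109600330 and Dio3 at chr12:110279068-110281097. The annotation places 67 miRNA genes and 23 small nucleolar RNA genes between Dlk1 and Dio3. None of the miRNA genes has a row in the tables, so no mature miRNA was measured in these neurons.

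The RefSeq sequence table holds 14 miRNA hairpins within Mirg on its strand. By the GENCODE exons, 4 of the hairpins lie wholly inside a Mirg exon, 5 overlap an exon in part and 5 are intronic. The mature sequences of the 4 exonic hairpins are shown because their bases are part of the spliced Mirg RNA in GENCODE. Whether those bases were counted as Mirg is not known, because the annotation used for counting is not settled. RefSeq starts Mirg at chr12:109734981, after miR-134-5p, miR-134-3p and miR-485-3p. Capitals mark the seed, bases 2 to 8, which pairs with target RNAs.
miR-134-5p: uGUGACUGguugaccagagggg
miR-134-3p: cUGUGGGCcaccuagucacc
miR-485-3p: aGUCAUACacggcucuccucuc
miR-377-5p: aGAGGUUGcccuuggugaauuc
miR-377-3p: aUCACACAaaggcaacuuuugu
miR-410-5p: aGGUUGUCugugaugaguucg
miR-410-3p: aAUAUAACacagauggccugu

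They are the products of Mir134 (miR-134-5p at chr12:109734145-109734166), Mir485 (miR-485-3p at chr12:109734946-109734967), Mir377 (miR-377-5p at chr12:109740515-109740536) and Mir410 (miR-410-3p at chr12:109743764-109743784). miR-134 is known for its action on dendritic spine size in neurons. No seed was shared among these 7 sequences. Across the mature sequences listed within Meg3, Rian and Mirg, 1 seed was shared, GGUUGCC, by 2 miRNAs whose hairpins lie in Mirg introns. Their sequences differ after the seed.
miR-453: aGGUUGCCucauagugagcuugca
miR-496a-5p: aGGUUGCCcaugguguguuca

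Depth varied widely between neurons. Total counts were between 2410 and 1948982 per neuron (median 423999), and Pyr <-- ORBvl neurons had more detected genes (median 3980.5) than Pyr <-- LP neurons (median 3241). Tests used the 83 neurons, 44 Pyr <-- LP and 39 Pyr <-- ORBvl, that had at least 500 counts and a sum of log2(count + 1) over the inhibitory markers Slc32a1, Gad1 and Gad2 of at most 7. The pan-neuronal marker Snap25 was detected in all 91 neurons and the excitatory marker Slc17a7 in 35 Pyr <-- LP and 36 Pyr <-- ORBvl neurons. The layer 5 marker Fezf2 was detected in 20 of 47 Pyr <-- LP and 32 of 44 Pyr <-- ORBvl neurons. The myelin gene Mbp was found in 45 and 43 neurons and the microglial gene Cx3cr1 in 16 and 21. Pyr <-- ORBvl neurons 5 and 11 had nearly the same counts (Pearson's r = 0.991 on log2(CPM + 1), against 0.528 for the next pair), although they differed by more than sampling noise. Both lie outside the 83 neurons. Neuron numbers follow the order of the deposited records and only name a neuron.

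Meg3 was the abundant RNA of the locus. It was detected in all 47 Pyr <-- LP and all 44 Pyr <-- ORBvl neurons, and only 37 of the 34745 rows had a count in every one of the 83 neurons. Its counts per 1000000 counts of a neuron (CPM) ranged from 14.6 to 4788 in the 44 Pyr <-- LP neurons with a median of 1657, and from 76.9 to 5953 in the 39 Pyr <-- ORBvl neurons with a median of 1324. The ranges overlapped almost entirely. The mean was 1821 ± 1308 CPM (SD, n = 44) in Pyr <-- LP and 2088 ± 1838 CPM (SD, n = 39) in Pyr <-- ORBvl neurons, so the type with the higher mean had the lower median. By median CPM, which is not corrected for gene length, Meg3 ranked 22 of all rows. By the deposited FPKM (fragments per kilobase of gene length and per 1000000 fragments) its median ranked 391.

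**Figure D1:**
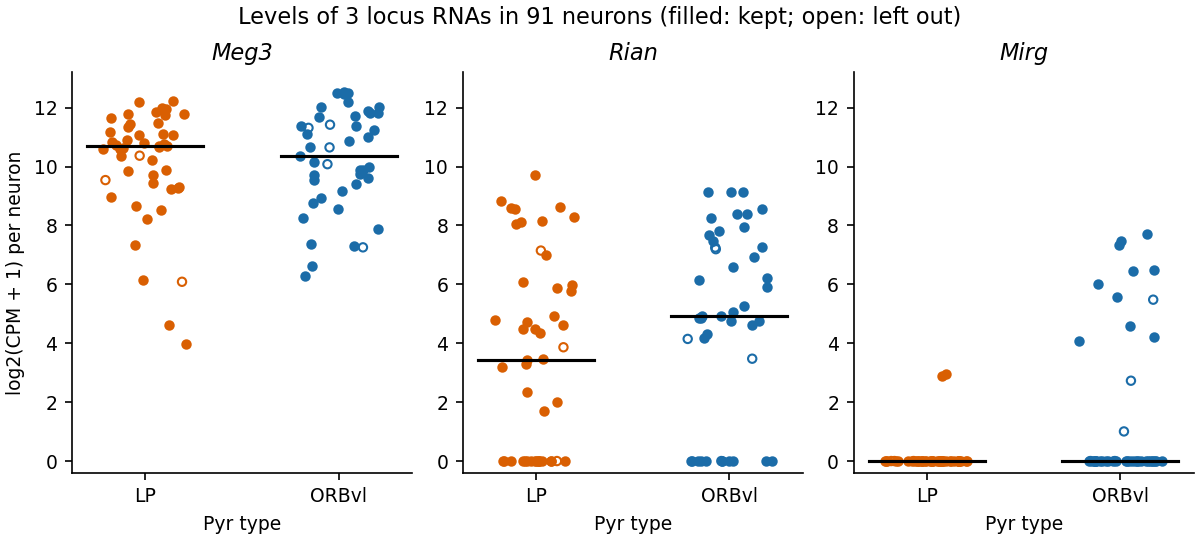
Levels of Meg3, Rian and Mirg as log2(CPM + 1), 1 point per neuron, by Pyr type. Filled points are the 83 kept neurons, open points the 8 left out, and black lines the medians of kept neurons. Meg3 lies above 0 in every neuron, Rian is split between neurons at 0 and neurons with counts in both types, and Mirg is above 0 in 2 Pyr <-- LP neurons and 13 Pyr <-- ORBvl neurons.

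No difference in Meg3 between the types was detectable. Its log2 fold change was 0.13 ± 0.42 (SE; Pyr <-- ORBvl over Pyr <-- LP), with an adjusted p of 0.987 in edgeR's quasi-likelihood test over 7542 genes. The 95% interval of the log2 fold change ran from -0.69 to 0.94. The titles of the neurons open with a number that groups them, here called the title prefix and treated as a batch. Within the 14 title prefixes that hold both types, the mean was higher in Pyr <-- LP neurons in 10 prefixes and in Pyr <-- ORBvl neurons in 4, and with prefix as a block in the fit the log2 fold change was -0.27 (adjusted p = 0.952).

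Rian, the next gene along the strand, was far less abundant and was absent from the counts of many neurons. In the 83 neurons it was detected in 28 of 44 Pyr <-- LP neurons (63.6%, 95% Wilson interval 48.9 to 76.2%) and 28 of 39 Pyr <-- ORBvl neurons (71.8%, 56.2 to 83.5%). Its level ranged from 0 to 838 CPM with a median of 9.91 in Pyr <-- LP neurons, and from 0 to 564 CPM with a median of 29.5 in Pyr <-- ORBvl neurons. Both types thus held neurons without a Rian count beside neurons with high values. On the deposited FPKM scale, Rian stood at a median of 0.695% of the Meg3 value of the same neuron in Pyr <-- LP and 2.51% in Pyr <-- ORBvl neurons. It exceeded Meg3 in 1 neuron of each type.

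Neither the level nor the share of neurons with Rian differed between the types beyond the spread. The log2 fold change was 0.61 ± 0.77 (SE), with an adjusted p of 0.935 in edgeR's test and a 95% interval from -0.91 to 2.12. The difference in the share of neurons was 8.16 percentage points (adjusted p = 0.956 over 7542 genes, two-sided Fisher's exact test). Across all genes tested the median difference in share was 4.90 percentage points in the same direction, and 67.7% of the genes were found in a larger share of Pyr <-- ORBvl neurons. With the log2 number of detected genes as a covariate the fold change of Rian was -0.18 (adjusted p = 0.984).

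Of the 2 members tested with the gene filter, Meg3 and Rian, 0 were called. A call required more than a 2-fold change together with a Benjamini-Hochberg adjusted p below 0.05. The share called among all 7542 genes was 2.27% (171 genes) with edgeR, made up of 0.888% higher in Pyr <-- ORBvl and 1.38% higher in Pyr <-- LP neurons. This balance, with 67 of the 171 higher in Pyr <-- ORBvl, turned under other settings. The genes higher in Pyr <-- ORBvl against those higher in Pyr <-- LP neurons then numbered 85 against 38 in all 91 neurons, 95 against 48 with prefix as a block and 35 against 14 with limma on log2(FPKM + 1). The share called was 0.57% with DESeq2 and 0.212% for the share of neurons by Fisher's exact test. At an unadjusted p under 0.05 the count of the 2 members was also 0 by edgeR, DESeq2, limma and Fisher's test, against 10.2% of all genes tested (767 genes) by edgeR.

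Mirg, the last of the noncoding genes, was seen in few neurons and mostly in Pyr <-- ORBvl neurons. Of all 91 neurons, 2 of 47 Pyr <-- LP neurons (4.26%, 95% Wilson interval 1.17 to 14.2%) and 13 of 44 Pyr <-- ORBvl neurons (29.5%, 18.2 to 44.2%) had a count. The 2 Pyr <-- LP neurons, 17 and 28, held 1 and 2 counts. In Pyr <-- ORBvl neurons the Mirg counts were 183 in neuron 42, 156 in neuron 37, 64 in neuron 33, 45 in neuron 3 and 43 in neuron 12. They were 19 each in neurons 7, 30 and 41, 12 in neuron 8, 11 in neuron 21, 8 in neuron 24, 6 in neuron 11 and 1 in neuron 5. The other 31 Pyr <-- ORBvl neurons had none, so the types overlapped at 0. Most Pyr <-- ORBvl neurons, like nearly all Pyr <-- LP neurons, had no Mirg count.

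Summed over the 91 neurons there were 586 Mirg counts in Pyr <-- ORBvl and 3 in Pyr <-- LP neurons. This is a ratio of 199 per total count, with an exact 95% interval from 67.6 to 966 that covers counting error only and not the spread between neurons. A single neuron held 31.2% of the Pyr <-- ORBvl counts. Without Pyr <-- ORBvl neurons 5 and 11 the sums were 579 and 3 and the ratio 215. In the 83 neurons, 2 of 44 Pyr <-- LP and 10 of 39 Pyr <-- ORBvl neurons had a count, with means of 0.299 ± 1.39 and 22.7 ± 52.0 CPM (SD). In the fit the log2 fold change was 5.35 ± 0.89 (SE), which depends on the prior count where a group is near 0, against a median of 0.07 over all genes tested. Mirg passed the gene filter, at least 5 counts in at least 10 neurons, through exactly 10 neurons, every one a Pyr <-- ORBvl neuron. Values of this contrast chose Mirg and are given as a description.

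**Figure D2:**
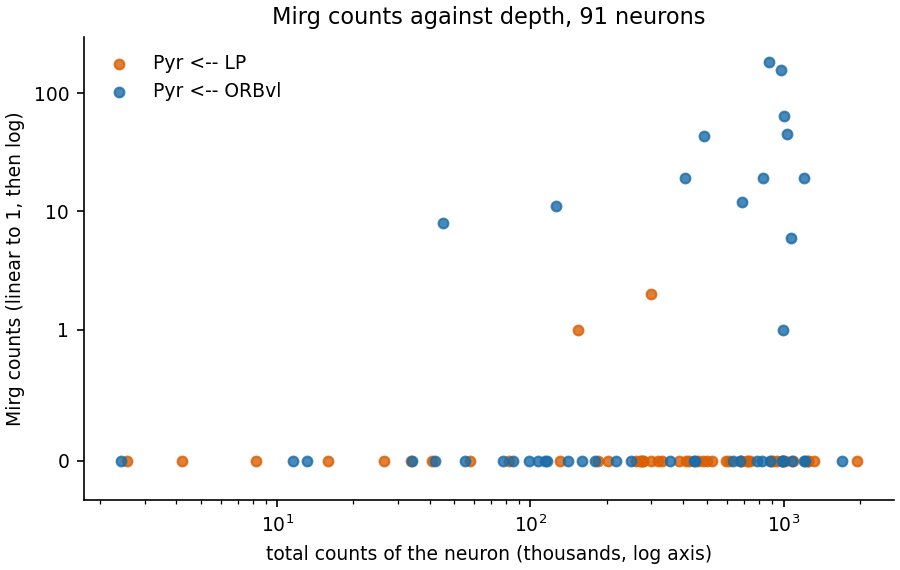
Mirg counts of each of the 91 neurons against its total counts (log axis), coloured by Pyr type. The Mirg axis is linear to 1 and logarithmic above. Pyr <-- ORBvl neurons with Mirg counts lie between 45077 and 1201992 total counts, where most Pyr <-- LP neurons also lie with no count.

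Depth is given beside these values. Median total counts were 399786 in the 44 Pyr <-- LP and 443593 in the 39 Pyr <-- ORBvl neurons, and the medians of detected genes were 3214 and 3940. When neurons with at least 100000 counts were thinned to that number, Mirg was found in 2 of 35 Pyr <-- LP and 9 of 30 Pyr <-- ORBvl neurons. Pearson's r between log2(CPM + 1) of Mirg and the number of detected genes was 0.18 across the 83 neurons, whose values share their library and depth. The part of depth and detected genes in the Mirg difference was not tested beyond these values.

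The neurons with Mirg came from several title prefixes. Mirg counts occurred in 9 of the 17 title prefixes. Among the 14 prefixes with both types, the mean Mirg level was higher in Pyr <-- ORBvl neurons in 8 and in Pyr <-- LP neurons in 0, and the remaining 6 held no Mirg count. Leaving out each prefix in turn, the difference in the share of the 83 neurons with Mirg lay between 16.74 and 24.03 percentage points.

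Markers of cell types were read beside Mirg. The GABAergic list (Slc32a1, Gad1, Gad2, Sst, Pvalb, Vip and Lamp5) summed to 0 to 1002 CPM with a median of 12.3 in the 44 Pyr <-- LP neurons and to 0 to 3216 CPM with a median of 781 in the 39 Pyr <-- ORBvl neurons. This rested on Lamp5, which encodes a lysosome-associated membrane protein and is also expressed by cortical pyramidal neurons. Lamp5 was detected in 15 Pyr <-- LP and 35 Pyr <-- ORBvl neurons. Without Lamp5 the list had a median of 0 CPM and counts in 18 neurons of each type, with ranges of 0 to 990 and 0 to 1116 CPM, and Slc32a1 and Vip had no count in any of the 39 Pyr <-- ORBvl neurons. In the 15 neurons with a Mirg count, the GABAergic list summed to 0 counts in both Pyr <-- LP neurons and to 56 to 3439 counts, Lamp5 included, in the 13 Pyr <-- ORBvl neurons. Slc32a1, Gad1 and Gad2 had no count in 9 of the 10 of these that are among the 83 neurons, and the other 3, neurons 3, 5 and 11, were left out for these markers. Over the same 15 neurons the oligodendrocyte list had 8 to 4611 counts, the microglial list 2 to 6409 and the astrocyte list 0 to 3870, and the endothelial list was at 0. The astrocyte list had counts in 43 of 44 and 36 of 39 neurons, with medians of 606 and 729 CPM, and the oligodendrocyte list in 42 of 44 and 39 of 39, with medians of 879 and 1743 CPM. The microglial list had counts in 42 of 44 and 39 of 39 neurons, with medians of 763 and 998 CPM. The part of such RNA in the Mirg counts was not tested. The layer 5 list (Fezf2, Bcl11b and Etv1) was higher in the type with more Mirg, with counts in 24 of 44 Pyr <-- LP and 33 of 39 Pyr <-- ORBvl neurons, summed levels of 0 to 1306 and 0 to 1047 CPM and medians of 5.85 and 223 CPM. Its part in the Mirg difference was not tested.

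Neurons with Mirg also had Meg3, but not always Rian. On the FPKM scale Mirg reached 17.4 in Pyr <-- ORBvl neuron 42, where Meg3 was at 26.4 and Rian at 5.27. Neuron 24 had 14.8 FPKM of Mirg beside 185 of Meg3 and 14.5 of Rian. Neuron 37 had 13.3 of Mirg beside 30.9 of Meg3 and 14.7 of Rian. In these neurons the 3 RNAs were present together. Neuron 12, in contrast, had 7.40 FPKM of Mirg and 228 of Meg3 with no Rian count, and neuron 41 had 3.87 of Mirg and 22.8 of Meg3 with none. Of the 10 Pyr <-- ORBvl neurons of the 83 with Mirg, 6 had Rian and 4 did not, while 22 had Rian without Mirg and 7 had neither. Mirg and Rian thus occurred both together and apart. Mirg did not exceed Meg3 in any of the 83 neurons, and it was above 10% of the Meg3 FPKM in 1 Pyr <-- LP and 6 Pyr <-- ORBvl neurons.

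**Figure D3:**
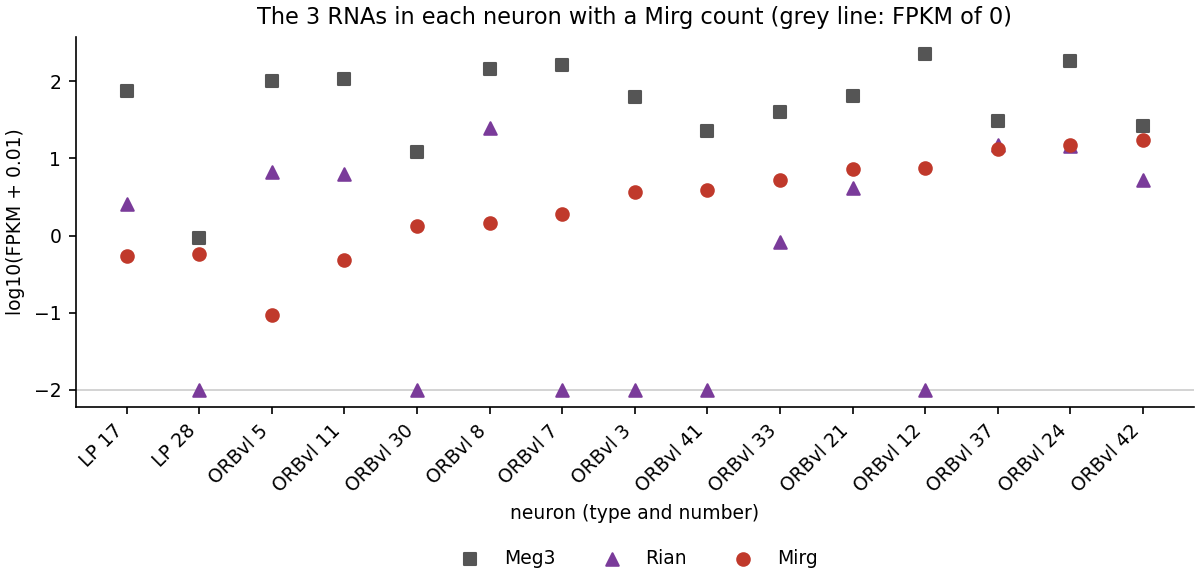
FPKM of Meg3, Rian and Mirg as log10(FPKM + 0.01) in each of the 15 neurons with a Mirg count, ordered by Mirg within each Pyr type. The grey line marks an FPKM of 0. Meg3 is above Mirg in all 15 neurons, and Rian is at 0 in 6 of them.

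Across the 83 neurons the correlation of Mirg with the other noncoding members was near 0. Pearson's r of log2(CPM + 1) was 0.03 between Mirg and Meg3 and 0.05 between Mirg and Rian, and 0.24 between Meg3 and Rian, over neurons that share library and depth differences. Of 7541 other genes, Rian ranked 279 by its r with Meg3, whereas Meg3 ranked 4049 and Rian 3359 by r with Mirg. These correlations are weak.

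The genes whose pattern was most like Mirg over the 83 neurons were Klhl5 (r = 0.56), Gm9748 (r = 0.55), Rnf217 (r = 0.54), Slit3 (r = 0.45) and Dym (r = 0.44). They are sparse as well, detected in 13 to 25 neurons, and Klhl5 had a count in 10 of the 12 neurons with Mirg. Klhl5 encodes a kelch-like protein, Rnf217 a RING finger protein and Slit3 a secreted axon guidance ligand. Those most like Meg3 were Snhg11 (r = 0.77), Malat1 (r = 0.65), Gm37376 (r = 0.60), Gm27000 (r = 0.52) and Soga3 (r = 0.51). Snhg11 and Malat1 are abundant noncoding RNAs, Malat1 being known for its retention in the nucleus, and each had a count in all 83 neurons. Their medians were 2244 and 2335 CPM for Snhg11 and 25283 and 22162 CPM for Malat1 in Pyr <-- LP and Pyr <-- ORBvl neurons. Of the 5 nuclear-retained RNAs compared (Malat1, Neat1, Miat, Snhg11 and Kcnq1ot1), 4 passed the gene filter and 0 were called, against 2.27% of all genes tested, with log2 fold changes from -0.78 to 0.09.

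The protein-coding members were at or near 0. Dlk1 had 5 counts in Pyr <-- LP neuron 9, 39 in Pyr <-- ORBvl neuron 12 and 4 in Pyr <-- ORBvl neuron 29, which lies outside the 83, and none in the other neurons. Rtl1 had 24 counts in Pyr <-- LP neuron 10, 43 in Pyr <-- ORBvl neuron 7 and 9 in Pyr <-- ORBvl neuron 20. Strand was not recorded, so these counts cannot be assigned to the minus strand, on which Rtl1 lies. Dlk1 and Rtl1 were thus each confined to 1 Pyr <-- LP and 2 Pyr <-- ORBvl neurons. Neither passed the gene filter, so neither was in the main test, and a fit without the filter is given in the closing section. Dio3 had no count in any of the 91 neurons. A count of 0 allows up to 6.38% of Pyr <-- LP and 6.82% of Pyr <-- ORBvl neurons to hold a Dio3 count, or 0.125 and 0.127 CPM over the summed neurons, by the limit of 3 counts.

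Between Dlk1 and Dio3 the tables hold 4 further rows, noncoding genes that were looked up after the members' values were seen. Gm26906 lies on the minus strand at the end of Meg3, and all of its 1228 exonic bases are also Meg3 exon. It was detected in 31 of 44 Pyr <-- LP and 28 of 39 Pyr <-- ORBvl neurons, and because strand was not recorded its counts cannot be told apart from Meg3. Gm37899 and B830012L14Rik lie between Rian and Mirg on the plus strand. Gm37899 was detected in 19 of 44 (43.2%) and 19 of 39 (48.7%) neurons, and B830012L14Rik in 6 of 44 (13.6%) and 7 of 39 (17.9%). Their log2 fold changes were -0.06 ± 0.85 and -1.43 ± 0.98 (SE; adjusted p of 0.996 and 0.736, edgeR). For B830012L14Rik 1 neuron held 69% of the Pyr <-- LP counts. Its log2 fold change was -0.09 with limma on log2(FPKM + 1) and 0.03 with a pseudocount of 0.1. Gm26945, inside the span of Rian, had 30 counts in 1 Pyr <-- LP neuron and none in the rest.

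Read along the plus strand, the share of Pyr <-- LP neurons with a count was 100% for Meg3, 63.6% for Rian, 43.2% for Gm37899, 13.6% for B830012L14Rik and 4.55% for Mirg. In Pyr <-- ORBvl neurons it was 100%, 71.8%, 48.7%, 17.9% and 25.6%. Gm26945, which lies inside the span of Rian, stood apart from this order at 2.27% and 0%. Gm26945 aside, the shares were lower at each step as far as B830012L14Rik in both types. Of the 39 Pyr <-- ORBvl neurons, 10 had Mirg and 7 had B830012L14Rik, the row before it. The Wilson intervals of these shares overlapped, at 14.6 to 41.1% and 8.98 to 32.7%. Mirg was chosen for its higher values in this type, and B830012L14Rik was looked up after the members' values were seen. The step between them is therefore a description and was not tested. Of the neurons with Mirg, 1 of the 2 Pyr <-- LP and 0 of the 10 Pyr <-- ORBvl neurons had a B830012L14Rik count. These rows differ in exonic length, from 2011 bases in Gm26945 to 18234 in Rian, and a share of neurons is not corrected for length.

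**Figure D4:**
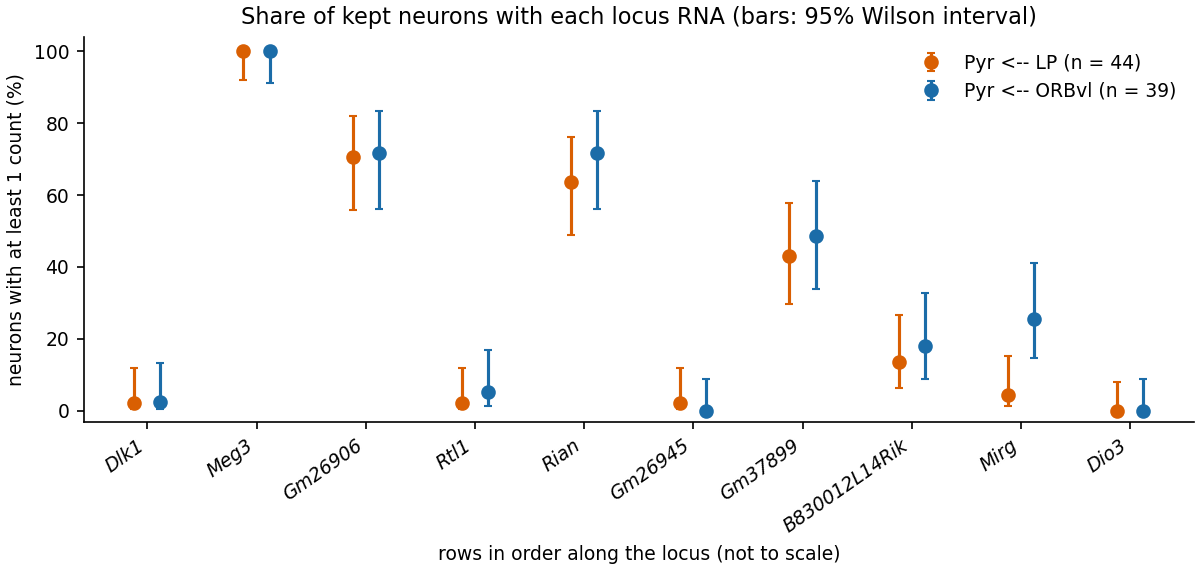
Percent of the 44 Pyr <-- LP and 39 Pyr <-- ORBvl neurons with at least 1 count of each locus row, with 95% Wilson intervals, in order along the locus and not to scale. Meg3 stands at 100% in both types, Dlk1, Rtl1, Gm26945 and Dio3 lie at or below 5.13%, and Mirg is at 4.55% and 25.6%.

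The 9 protein-coding genes next to the locus were counted for comparison. Yy1 (a zinc finger transcription factor), Slc25a29 and Slc25a47 (mitochondrial carriers), Wars (tryptophanyl-tRNA synthetase), Wdr25 (a WD repeat protein) and Begain (a postsynaptic protein) lie before Dlk1. Ppp2r5c (a regulatory subunit of protein phosphatase 2A), Dync1h1 (the dynein heavy chain) and Hsp90aa1 (a cytosolic chaperone) lie beyond Dio3. Of these, 6 passed the gene filter and 0 were called, against 2.27% of all genes tested, with a median log2 fold change of -0.16 against 0.07 over all genes tested. At an unadjusted p under 0.05 there were 2 of the 6, Wars and Hsp90aa1, against 10.2% of all genes tested. The largest was that of Wars, 2.27 ± 0.99 (SE, adjusted p = 0.332), with 10 of 39 Pyr <-- ORBvl and 4 of 44 Pyr <-- LP neurons holding a count. For Wars, 1 neuron held 78.6% of the Pyr <-- ORBvl counts and 1 neuron held 93.5% of the Pyr <-- LP counts. Hsp90aa1 had a log2 fold change of -1.01 ± 0.41 (SE, adjusted p = 0.261) and was detected in all 91 neurons, while its medians were 1233 and 1280 CPM and its means 1532 and 1370 CPM in Pyr <-- LP and Pyr <-- ORBvl neurons. The other tested neighbours were Yy1 at -1.11, Begain at -1.08, Dync1h1 at 0.68 and Ppp2r5c at 1.09. Slc25a29, Slc25a47 and Wdr25 did not reach the filter, with counts in at most 5 neurons of either type.

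Imprinted genes elsewhere in the genome were counted in the same way. Of the 49 listed, 45 had a count and 23 passed the filter, and 0 were called, against 2.27% of all genes tested, a share at which 0 of 23 is near the background. Their median log2 fold change was 0.07, as over all genes tested, with 12 of 23 above 0. The 5 with the highest median level were Snrpn (1397 CPM), Nap1l5 (1336 CPM), Cd81 (546 CPM), Gnas (436 CPM) and Peg3 (270 CPM). Snrpn, a splicing-associated protein gene, and Nap1l5, a nucleosome assembly protein-like gene, were detected in all 83 neurons. Their CPM levels, not corrected for gene length, were near that of Meg3. Their log2 fold changes were 0.27 ± 0.39 and -0.35 ± 0.42 (SE). At an unadjusted p under 0.05 there were 4 of the 23 genes, against 10.2% of all genes tested. They were Zdbf2 (log2 fold change 3.19, adjusted p = 0.0518), Peg3 (-2.58, adjusted p = 0.0961), Ube3a (-1.98, adjusted p = 0.168) and Rasgrf1 (1.30, adjusted p = 0.454), all by edgeR, and Zdbf2, Ube3a and Rasgrf1 are named here after their values were seen. For Peg3, a zinc finger protein gene, 1 neuron held 45.8% of the Pyr <-- LP counts, and the fitted direction was opposite to that of the medians (135 CPM in Pyr <-- LP and 373 CPM in Pyr <-- ORBvl neurons) and of the means (638 and 650 CPM). For Ube3a, a ubiquitin ligase gene, the fitted direction was opposite to that of the medians (65.2 and 132 CPM) and the means were 242 and 212 CPM.

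**Figure D5:**
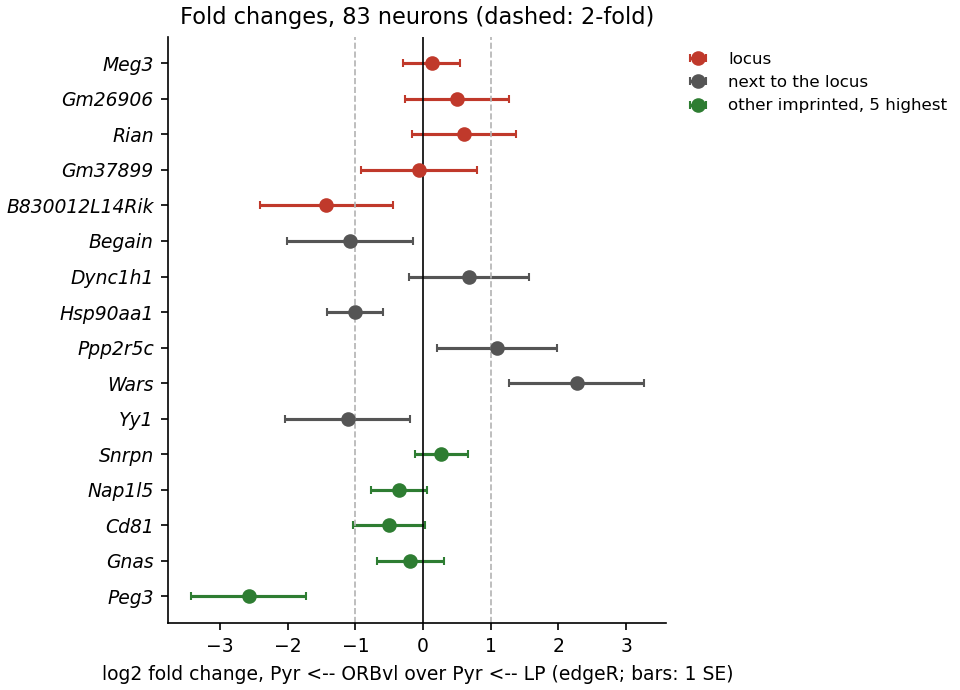
Log2 fold changes, Pyr <-- ORBvl over Pyr <-- LP, from edgeR on 83 neurons with bars of 1 SE. The rows are the testable locus rows, the 6 tested neighbours and the 5 most abundant imprinted genes elsewhere, and dashed lines mark a 2-fold change. Mirg is left out because it was chosen on this contrast. None of the genes plotted was called, and Meg3 lies at 0.13.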

How the data were processed

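Patch-seq libraries of 91 neurons were made with a Smart-seq2-based kit without molecular identifiers, so intervals and limits cover counting error only. The authors aligned reads to GRCm38 with STAR 2.5.3, removed duplicates and deposited raw counts of uniquely aligned reads per gene; their methods name RefSeq genes, yet 32789 of the 34678 distinct row names match GENCODE M21 and 25647 RefSeq. They also deposited FPKM, whose gene length is not given in the sources used here. The values imply 11987 bases for Mirg, against 7292 exonic bases in GENCODE M21, so levels between genes depend on it.

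Types came from the labels. Members and gene lists were chosen with earlier results of these data known. The study's exclusion rule, applied to the counts, left out 8 neurons; the 83 kept are not the study's own, smaller set. Counts were tested with edgeR 4.0.16 (TMM, robust quasi-likelihood, Benjamini-Hochberg) in R 4.3.3 on genes that reached 5 counts in 10 or more neurons, and limma 3.58.1 (pseudocount 1 or 0.1 on FPKM) and DESeq2 1.42.0 were alternatives. Intervals of log2 fold changes are 1.96 SE on either side. Shares were tested with Fisher's exact test (scipy 1.17.1). Scripts were tested on simulated data. The title prefix (17 values, hyphenated forms merged) served as a batch; its meaning is not stated. Named genes were every member, the neighbours, the called and the 5 most abundant imprinted genes, and the 5 genes most like Mirg and Meg3 by Pearson's r. Zdbf2, Ube3a and Rasgrf1 were added after their values were seen, for an unadjusted p under 0.05 by edgeR. Cell type markers, nuclear-retained RNAs and the further locus rows were named as well. Mature miRNA sequences are from RefSeq (GRCm38.p6). Recordings and reads are not analysed here.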

Additional observations from a re-analysis of the deposited data

How the results depend on the processing

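Meg3 and Rian were not called under any alternative fitted with the gene filter or without it, and the smallest adjusted p over these fits was 0.634. Their directions were not stable. The log2 fold change of Meg3 (0.13) was -0.087 with DESeq2 size factors, -0.27 with title prefix as a block and -0.52 with counts summed per type within prefix, and lay between -0.042 and 0.42 with each prefix left out. That of Rian (0.61) was -0.074 with the prefix block, -0.18 with the number of detected genes as a covariate and -0.027 with summed counts, and lay between 0.24 and 1.27 with each prefix left out. For Mirg (5.35, no test) it was 3.43 with the prefix block, 4.65 with DESeq2, 0.67 with limma on log2(FPKM + 1) and 1.35 with a pseudocount of 0.1. The limma values compare means of log values over neurons, most of which had no Mirg count in either type. With each prefix left out the log2 fold change of Mirg in edgeR lay between 5.26 and 5.41 in 9 fits. In the other 8 Mirg no longer passed the gene filter, as with summed counts. The share of neurons with Rian was not called as different in any of its 22 alternatives. The FPKM of a gene is its CPM divided by a constant, so its ratios of means equal those of CPM and are no separate check. By Spearman's rho 3 of the 5 genes most like Mirg remained among its first 5, and all 5 of those most like Meg3.

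The 171 genes called became 43 with DESeq2, 49 with limma, 3 with summed counts, 4950 without the gene filter, and 106 with all 91 neurons and the near-identical pair averaged, an alternative chosen after seeing the data. They numbered between 42 and 188 with each prefix left out, the low values being 43 without prefix 822, 42 without 830 and 50 without 831. The causes were not tested. Without the filter, where 4950 of 18100 genes were called, Dlk1 passed the call (log2 fold change 2.10, adjusted p = 0.0284, edgeR). It had a count in only 2 of the 83 neurons and ranked 4692 by p. Rtl1 did not pass the call in that fit (log2 fold change 0.63, adjusted p = 0.648, edgeR). Averaging the near-identical pair could not be applied to the 83 neurons, which hold neither. Mirg was without a count in most neurons of both types, and no count in a neuron does not show that the RNA was absent.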
